A study of Homo sapiens with 4 samples.

Results

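The strong sites were the progesterone receptor (PR) binding sites of hormone-treated T47D cells whose deposited score was 150 or more, wherever in the genome they lay. They were 447 of 11181 sites in all, or 4.0%, a share set by the limit itself. The score is −10 × log10 of the p-value that the peak caller gave to a site, so it grows with the number of reads in the site over the input DNA. The members were chosen by this score alone, so score values are a description here, with no test. The 3 strong sites nearest to the limit had scores of 150.10, 150.33 and 150.52, and the 3 sites just outside it had 149.69, 149.57 and 149.57. Beside them, 10734 weaker sites served for comparison.

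PR is a nuclear receptor that resides in the cell in complexes with chaperones, binds progesterone or synthetic progestins, forms dimers and attaches to DNA as a transcription factor. The DNA element it prefers is an inverted repeat of a short half-site around a spacer of any bases, and the glucocorticoid, mineralocorticoid and androgen receptors recognise the same element. In breast epithelium PR governs side branching and alveolar growth of the gland, in part through signals passed to neighbouring cells, and many PR binding regions lie far from the start of any gene.

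T47D is a human luminal breast carcinoma line with a high content of PR. Cells received the synthetic progestin R5020 at 10 nM for 1 h before chromatin immunoprecipitation and sequencing (ChIP-seq) with an antibody against PR, and 10 nM R5020 or its vehicle, ethanol (EtOH), for 3 h before RNA sequencing. Input DNA was the control for the sites, and no ChIP-seq library of EtOH-treated cells was analysed here, so the sites are those bound in the presence of hormone and no change of binding could be measured. There was 1 library for each condition, so no difference had a replicate check and none was tested. The shares below carry 95% Wilson intervals, which cover counting error alone and treat sites and genes as if they were independent. Expression is given as FPKM, mapped fragments scaled to transcript length and library size. The coverage deposited for the transcripts was equivalent to 35151493 reads of 50 nt (EtOH) and 36203604 (R5020), and 10679 and 10564 genes reached an FPKM of 1. The paper states higher totals of unique paired-end reads, with more for EtOH than for R5020. All 9 luminal markers looked up were expressed at 1 FPKM or more in at least 1 condition, whereas none of the basal, immune or endothelial markers was, and of the stromal ones COL1A1 was the only member, with 5.12 FPKM in EtOH and 3.31 in R5020. The luminal keratins KRT8 and KRT18 were listed at 0 in EtOH, where the status given for their transcripts was a failed estimate, and at 285 and 174 FPKM in R5020. No strong site lay within 50 kb of these luminal markers, which with 5.26% of retained genes near one is no departure from the background.

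Strong sites differed in how closely they matched the response element, and examples are printed here to show what the later counts refer to. The stretch in capitals is in each case the 15-base window that came closest to the full inverted repeat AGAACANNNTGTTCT with its core ACANNNTGT intact, except at PLXNA1, whose closest window had a core letter changed. Sequences are the + strand of the human genome build GRCh37 (hg19), 5′ to 3′, 55 bases each. The first 3 belong to the FKBP5 locus, the next 4 are the only strong sites whose central 300 bp held a window with 11 of the 12 fixed letters, and the others lie at genes described below.
FKBP5 promoter, rank 3, chr6:35695870-35695924: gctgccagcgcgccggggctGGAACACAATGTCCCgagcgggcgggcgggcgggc
FKBP5 intron, rank 10, chr6:35693554-35693608: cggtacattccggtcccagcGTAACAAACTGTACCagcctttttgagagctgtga
FKBP5 upstream, rank 193, chr6:35699775-35699829: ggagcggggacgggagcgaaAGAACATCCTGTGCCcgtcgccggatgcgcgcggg
MRFAP1, rank 4, chr4:6635124-6635178: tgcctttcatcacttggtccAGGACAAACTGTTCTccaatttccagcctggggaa
PLXNA1, rank 33, chr3:127023167-127023221: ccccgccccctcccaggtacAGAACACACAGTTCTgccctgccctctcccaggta
AKAP13, rank 108, chr15:85874585-85874639: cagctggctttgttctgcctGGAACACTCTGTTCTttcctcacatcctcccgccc
LOC100506810, rank 178, chr1:235011569-235011623: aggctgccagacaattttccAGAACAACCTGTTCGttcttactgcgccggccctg
CCDC57 intron, rank 5, chr17:80110599-80110653: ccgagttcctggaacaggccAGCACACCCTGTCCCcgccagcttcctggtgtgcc
ZBTB16 intron, rank 81, chr11:114050206-114050260: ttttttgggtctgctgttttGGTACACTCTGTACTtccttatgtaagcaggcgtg
CDKN1A promoter, rank 102, chr6:36647340-36647394: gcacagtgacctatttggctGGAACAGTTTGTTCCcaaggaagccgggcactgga
KLF9, rank 122, chr9:73035021-73035075: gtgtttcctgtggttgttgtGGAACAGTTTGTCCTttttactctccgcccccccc
TIPARP promoter, rank 241, chr3:156391905-156391959: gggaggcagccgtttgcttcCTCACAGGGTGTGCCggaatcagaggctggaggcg
Of the 12 fixed letters, 9 were matched in the FKBP5 promoter site, 8 in the intronic one and 10 upstream of the gene. The CCDC57 and ZBTB16 windows matched 9 letters, those at CDKN1A and KLF9 matched 10, and the TIPARP window matched 7. At FKBP5 the promoter element lay 5 bp from the middle of its site, and that of CCDC57 lay 7 bp from the middle. The FKBP5 intron and KLF9 elements lay farther out, at −464 and 411 bp from the middle, outside the central 300 bp used for most counts.

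Not every strong site held a core. The 150 bases around the middle of 3 strong promoter sites are printed with every CG dinucleotide in capitals, on the same strand and build. NFKBIA held the site with the highest score of all, BTG1 was among the genes with the largest falls, and EGFR, the epidermal growth factor receptor gene, was chosen after its values were seen.
NFKBIA, rank 1, chr14:35873171-35873320: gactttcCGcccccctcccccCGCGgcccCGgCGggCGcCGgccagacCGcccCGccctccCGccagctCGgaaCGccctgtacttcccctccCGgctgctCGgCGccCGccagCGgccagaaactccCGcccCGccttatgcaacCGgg
EGFR, rank 45, chr7:55087105-55087254: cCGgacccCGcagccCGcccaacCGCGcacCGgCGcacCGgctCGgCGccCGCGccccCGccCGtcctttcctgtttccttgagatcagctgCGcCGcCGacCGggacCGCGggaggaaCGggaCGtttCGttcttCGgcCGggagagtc
BTG1, rank 48, chr12:92540074-92540223: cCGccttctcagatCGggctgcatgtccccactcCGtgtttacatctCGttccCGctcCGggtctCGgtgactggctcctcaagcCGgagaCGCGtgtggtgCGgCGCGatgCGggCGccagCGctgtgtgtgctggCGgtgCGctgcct
These stretches held 20, 25 and 18 CG dinucleotides, their G and C content was 78.7%, 74.7% and 68.0%, and neither the core ACANNNTGT nor the half-site AGAACA occurred anywhere in the 3 sites. With any letter free to differ, the closest window in the central 300 bp of the NFKBIA site differed from the full repeat by 3 letters, and at EGFR and BTG1 by 4. The FKBP5 promoter window printed above also differed by 3 letters, but kept its core. Such matches are common, since the closest window differed by 3 letters or fewer in 13.2% of windows 5 kb from strong sites and by 4 in 47.0%.

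Response element letters were more common in strong than in weaker sites. In the 300 bp around the midpoint, on both strands, the core ACANNNTGT occurred in 95 of the 446 strong sites that lie on the assembled chromosomes, or 21.3% (17.8 to 25.3), against 7.66% (7.17 to 8.18) of weaker sites. Windows of equal length 5 kb to either side of the strong sites held it in 7.96%. The extended form GNACANNNTGTNC, which contains the core, occurred in 38 strong sites, or 8.52% (6.27 to 11.5), in 1.61% of weaker sites and in 4 of the 892 windows 5 kb away, or 0.448%. The full repeat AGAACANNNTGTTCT was found in 0 strong sites, which allows a share of up to 0.854% by the same interval, and in 3 of the 10732 weaker ones. Allowing up to 2 of its 12 letters to differ gave 33 strong sites, or 7.40% (5.32 to 10.2), against 2.25% of weaker sites and 1.68% of the windows 5 kb from strong sites. Searched over the whole width of each site, the core was in 143 strong sites, or 32.1%, and in 10.8% of weaker sites, although strong sites were also wider.

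The share with a core did not climb evenly with the score. From the lowest class of scores to the highest it was 6.55%, 7.97%, 11.4% and 14% up to a score of 200, then 30.8% between 200 and 300, 19.1% between 300 and 500 and 31.5% at 500 or more, while the windows 5 kb away stayed between 6.5% and 8.8%. The extended form went from 0.93% in the lowest class to 20.4% in the highest. Strong sites with a core anywhere in their width had a median score of 241.87, and those without one 194.98. Where a strong site had a core in its central window, the core nearest the midpoint lay a median of 58 bp from it. In 38 of the 95 sites this core lay within 50 bp, or 40%, and in 42.8% of the weaker sites with a core. An even spread of a single core over the window would give 34.6%, and centring was not tested. The second base outside the core, a G in each arm of the full repeat, was G in 54.1% of 218 arms in strong sites, in 40.3% of 1738 arms in weaker sites and in 23.2% of 3450 arms in windows 5 kb from all sites.

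**Figure D1:**
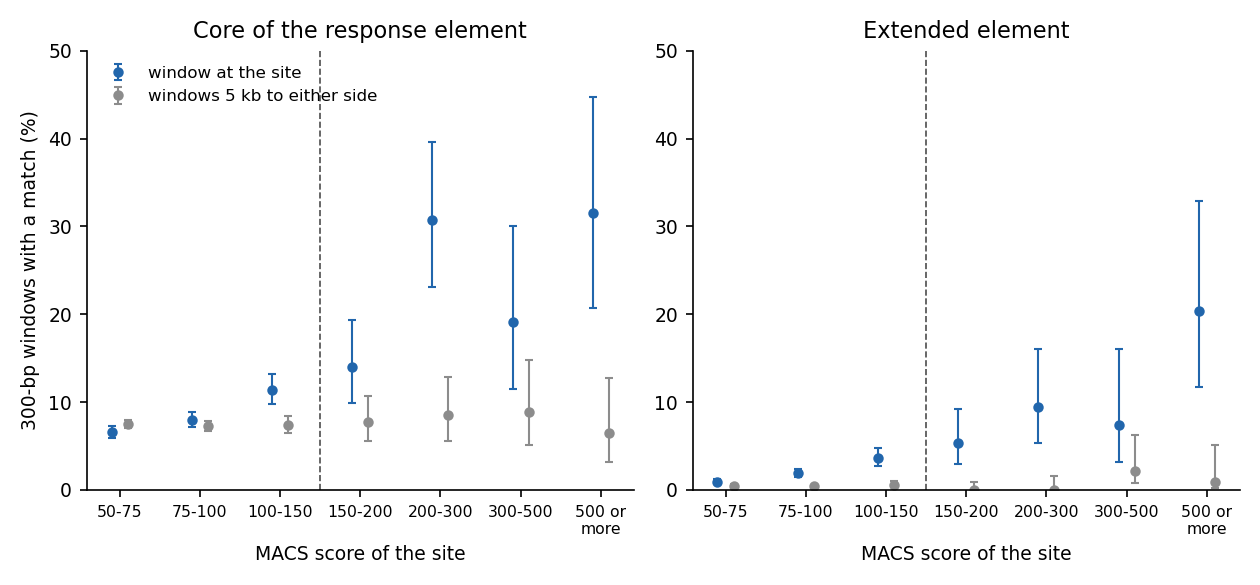
Share of 300-bp windows with a match (vertical axis, percent) for the core ACANNNTGT on the left and the extended form on the right, by class of the deposited MACS score (horizontal axis), with the window at the site in blue, the windows 5 kb to either side in grey and 95% Wilson intervals as bars. The core is in 6.55% of sites in the lowest class and 31.5% in the highest, the dashed line at 150 marks the strong sites, and the windows 5 kb away stay below 9%.

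Letters of other factors were searched in the same windows. The forkhead motif TGTTTAC, the letters that FOXA1 prefers, was in 6.05% (4.19 to 8.66) of strong sites, in 2.43% of weaker sites and in 3.48% of windows 5 kb from strong sites. The GATA motif AGATAA was in 8.07% of strong and 7.97% of weaker sites and in 12.8% of windows 5 kb from strong sites. The AP-1 motif TGANTCA was in 8.97%, 7.15% and 8.07%, in the same order. The single half-site AGAACA, part of the full repeat, was in 27.6% of strong and 17.3% of weaker sites and in 19.2% of windows 5 kb away. By place, the core was in 20.6% of strong sites at promoters, 28.6% of the 21 in exons (13.8 to 50), 23.0% in introns and 19.1% between genes.

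Scores of the strong sites ran from 150.10 to 1965.17 with a median of 206.31, and the weaker sites had a median of 74. Of the 447, 208 scored below 200, 117 between 200 and 300, 68 between 300 and 500, and 54 at 500 or more. Strong sites were wider, with a median of 631 bp (180 to 2105) against 458 bp (175 to 1453). The median width grew from 572 bp in the class of 150 to 200 to 825.5 bp at 500 or more. Within the strong sites, score and width had a Spearman rank correlation of 0.30 over 447 sites, a description only, since the width of a site and its score come from the same reads.

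Some strong sites were narrow. Of the strong sites, 55 were under 350 bp, and among these the highest score was 356.27, at a site near LCOR. Equal scores recurred among narrow and wider sites, and 78 strong sites shared their score with another strong site. Of these, 20 had exactly 159.71, with widths of 190 to 337 bp, and 8 had 174.94, with widths of 408 to 910 bp. There were 13 neighbouring pairs of strong sites less than 1 kb apart, of which 5 pairs had the same score and 6 pairs the same width to within 1 base. Pairs alike in both lay near C14orf135 (209 and 209 bp, score 170.69 for both), MIB1, DSEL, GRIA3 and TTC28. The cause of the equal scores was not tested. Of the narrow sites 10.9% were at promoters, against 20.2% to 35.4% in the 4 classes of wider sites. A core was in 18.2% of narrow sites, within the range of the wider classes (15.2% to 27.4%). A gene that was higher in R5020 lay within 50 kb of 20% of the narrow sites and of 21% to 29.5% in the wider classes.

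**Figure D2:**
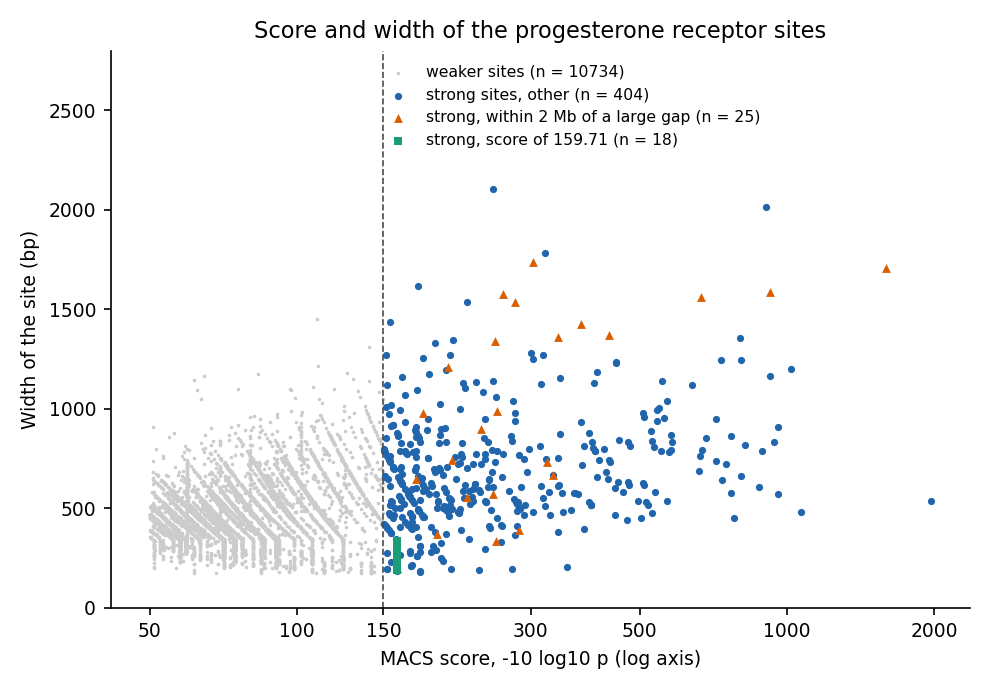
Width of each site in bp (vertical axis, linear) against its MACS score (horizontal axis, logarithmic), with weaker sites in grey left of the dashed line at 150 and strong sites right of it. Orange triangles are the 25 strong sites within 2 Mb of a large gap, many of them wide, and green squares are 18 of the 20 narrow sites with a score of 159.71, the other 2 being among the triangles.

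Strong sites also lay more often than weaker ones beside unassembled stretches of the genome. Of the 446, 25 lay within 2 Mb of a run of at least 1 Mb of unknown bases, such as a centromere, or 5.61% against 2.09% of weaker sites. They were wide, with a median of 978 bp, and poor in G and C, with a median of 38.0%. Of these sites 72.0% lay between genes, their median distance to a start was 116 kb, and 3 of the 25 held a core. The second and the ninth highest scores of all were among them, and their part in the read counts was not tested. Without them 21.9% of strong sites held a core, 25.2% were at promoters and 19.0% of genes near strong sites were higher in R5020, each within the interval given for all strong sites.

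At promoters, within 1 kb of the start of a protein-coding gene, lay 107 strong sites, or 24.0% (20.3 to 28.2), against 17.1% (16.4 to 17.9) of weaker sites. Introns held 161 (36.1%, weaker 40.9%), exons 21 (4.71%, weaker 7.53%) and the space between genes 157 (35.2%, weaker 34.4%). The promoter share did not follow the score throughout. It was 14.9% in the lowest class of all sites, 28.0% for scores of 150 to 200, 17.1% for 200 to 300 and 25.9% at 500 or more. The median distance to the nearest start was 13.4 kb for strong and 13.5 kb for weaker sites, and 23.1% of strong and 24.6% of weaker sites lay beyond 50 kb of any start.

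The G and C content of the central 300 bp was alike in strong and weaker sites, with medians of 57.2% and 57.3%, and both were above the 47.3% of windows 5 kb from the strong sites. Strong promoter sites were the richest, with a median of 67.7% and 26 CG dinucleotides in 300 bp, whereas strong intronic and intergenic sites had medians of 54% and 51.7%. The 3 promoter stretches printed above are of that kind.

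Most strong sites stood alone. The median distance to the nearest other strong site was 740 kb, while the nearest site of any score lay at a median of 15.3 kb, against 18.6 kb for weaker sites. Another strong site lay within 10 kb of 44 strong sites (9.84%), within 50 kb of 93 (20.8%) and within 100 kb of 112 (25.1%). Joining strong sites up to 50 kb apart left 354 single sites and gave 39 clusters, of which 31 held 2 sites and 1 held 6. Per Mb of chromosome, strong sites were densest on chromosome 16 (0.456), 17 (0.450) and 14 (0.362), and sparse on chromosome 13, with 1 site (0.0105), and on chromosome 4 (0.0213).

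The largest cluster lay over and upstream of KIAA0182, a gene also called GSE1, with a listed extent of chr16:85645029-85709812. Sites of the cluster lay 30.9, 16.1 and 2.29 kb outside this extent, and the others overlapped it. The 6 sites of the cluster lay at chr16:85613681-85684002, over 70.3 kb, with scores of 162.65 to 446.57. Between them were 24 weaker sites, and 2 of the 6 held a core somewhere in their width. Next to it on the same arm were 4 more strong sites at chr16:85508642-85560378 and another 4 near LOC727710 at chr16:85411100-85455093. KIAA0182 itself had 46.4 FPKM in EtOH and 64.5 in R5020, a log2 change of 0.47, below the 1.5-fold mark used here. FKBP5 had a cluster of 3 strong sites at chr6:35693039-35700000, in 6.96 kb and with no weaker site between them, and all 3 held a core in their width. Their scores were 905.29, 1067.02 and 228.24.

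**Figure D3:**
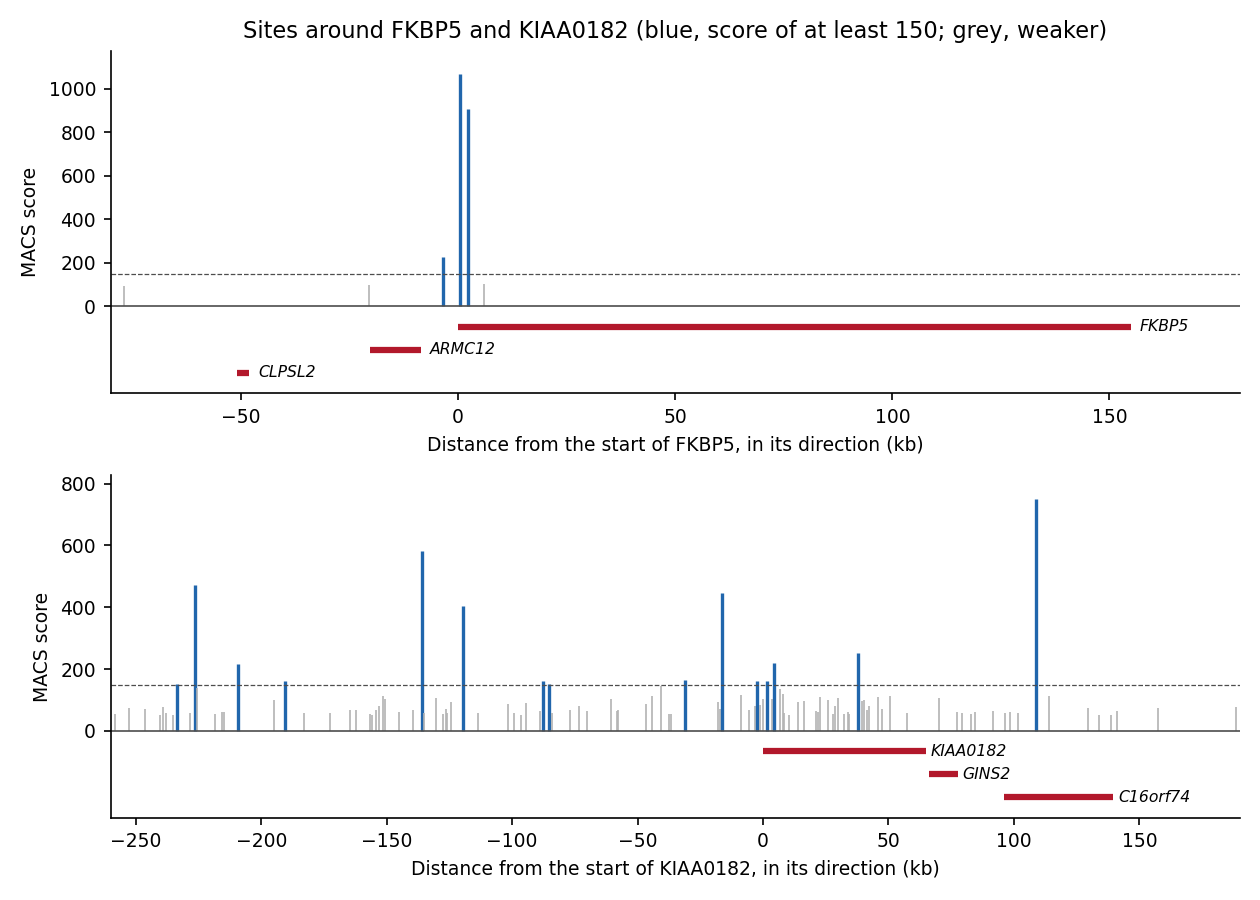
MACS score (vertical axis) of the sites around FKBP5 (top) and KIAA0182 (bottom), by distance in kb from the start of each gene in its direction (horizontal axis), with strong sites in blue, weaker ones in grey, the limit of 150 dashed and gene extents in red. No weaker site lies between the 3 strong sites of FKBP5, whereas weaker sites fill the space between the strong sites around KIAA0182.

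For the response of nearby genes, FPKM values were summed over the transcripts of each gene, and 11018 of 23287 genes with 1 FPKM or more in at least 1 condition were retained. Changes are given as the log2 ratio of R5020 to EtOH after 1 was added to both FPKM values, a scale that understates the change of low genes, and a gene was called higher or lower at 1.5-fold. In all, 7.67% of retained genes were higher in R5020 and 4.14% were lower. Within 50 kb of a strong site lay 886 genes, of which 579 were retained, 307 were not, and 127 of the latter were listed at 0 in both conditions. Of the 579, 111 were higher, or 19.2% (16.2 to 22.6), and 21 were lower, or 3.63% (2.38 to 5.48). Among the 5224 genes with a weaker site only, 7.81% were higher and 4.92% lower, and among the 5215 with no site, 6.25% and 3.41%. The median log2 change was 0.06 near strong sites, −0.02 near weaker sites only and 0.01 over all retained genes. The share of higher genes near strong sites was thus above the background, while the share of lower genes was near it.

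Closeness to a strong site went with the share of higher genes. Of 184 genes overlapped by a strong site, 57 were higher, or 31.0% (24.7 to 38.0), against 10.2% of genes overlapped by weaker sites only. The share was 19.8% of 91 genes at up to 10 kb, 11.8% of 304 genes at 10 to 50 kb, 9.59% at 50 to 100 kb, 6.45% at 100 to 250 kb and 6.98% beyond. Among overlapped genes it grew with the best score, from 8.44% for the weakest class to 24.5% for 150 to 200, 32.4% for 200 to 300, 40.7% for 300 to 500 and 45.5% (10 of 22) at 500 or more. None of the 27 and 22 overlapped genes in the last 2 classes was lower, which allows shares of up to 12.5% and 14.9%. With 4.14% of all retained genes lower, counts of 0 among so few are no departure from the background.

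Long genes have more room for a site, so shares were also set out by gene extent. Under 20 kb, 5 of 40 genes with an overlapping strong site were higher, or 12.5% (5.46 to 26.1). The share was 6.78% with a weaker site only and 6.10% where no site overlapped. Between 20 and 100 kb the shares were 33.3%, 10.4% and 5.90%, and at 100 kb or more 39.4%, 14.5% and 10%. The order was the same in each class, although under 20 kb the interval for strong sites covered both other shares. Genes with a strong site at their own promoter were higher in 22 of 80 cases, or 27.5%, and those with a weaker promoter site in 11.5% of 975. Restricting to genes at 1 FPKM or more in both conditions left 89 of 537 higher, or 16.6%, against a background of 6.47%.

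**Figure D4:**
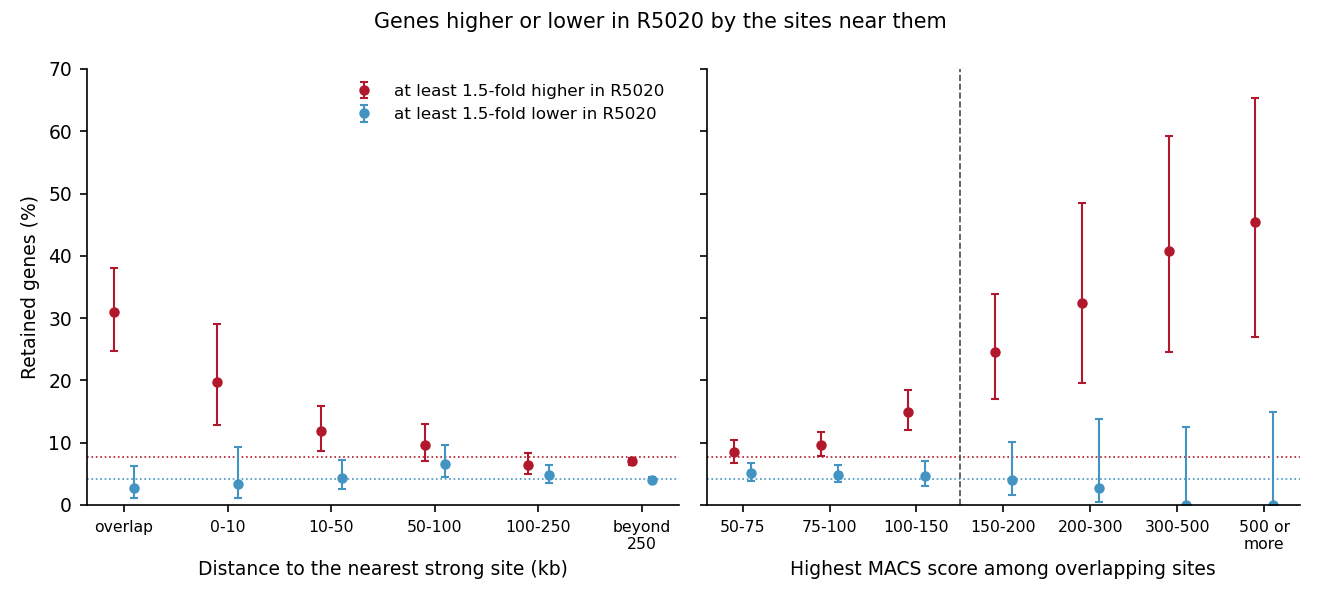
Share of retained genes (vertical axis, percent) that were at least 1.5-fold higher (red) or lower (blue) in R5020, by distance to the nearest strong site on the left and by the highest score of an overlapping site on the right, with 95% Wilson intervals as bars and the shares of all retained genes as dotted lines. The share of higher genes is 31.0% where a strong site overlaps and 6.98% in the farthest class, and it reaches 45.5% in the highest class of score.

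Among genes that a strong site overlapped, 32.8% of 67 were higher where such a site had a core in its width (22.8 to 44.7) and 29.9% of 117 where none had (22.4 to 38.7), so the intervals overlapped over most of their length. Within 50 kb the shares were 24.4% of 205 genes and 16.3% of 374. Counted from the sites, 113 strong sites, or 25.3% (21.5 to 29.5), had a higher gene within 50 kb, against 10.8% (10.2 to 11.4) of weaker sites, and 24, or 5.37%, had a lower gene, against 7.38%. The share with a higher gene was 22.1% for scores of 150 to 200 and 38.9% (21 of 54) at 500 or more. Counted from the genes, a strong site lay within 50 kb of 14.6% of the genes that were at least 4-fold higher, 16.6% of those 2- to 4-fold higher, 10.7% of those 1.5- to 2-fold higher, 4.61% of the lower genes and 4.6% of the genes under 1.5-fold. Most higher genes had no strong site near, since 111 of 845, or 13.1%, did.

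The highest score, 1965.17, belonged to the promoter site of NFKBIA at chr14:35872979-35873513. This site lay inside the extent of the gene, chr14:35870716-35873960. NFKBIA, which encodes the inhibitor that holds NF-kappa-B in the cytoplasm, had 7.82 FPKM in EtOH and 34.5 in R5020, a log2 change of 2.01. FKBP5, a co-chaperone of HSP90 that lowers the hormone affinity of steroid receptors, had 15.9 and 86.6 FPKM, a log2 change of 2.38. Its promoter site lies at the start of a long transcript listed at 0 in both conditions. The FPKM was assigned to a transcript that starts 36.3 kb away from the nearest strong site, with 15.9 and 79.3 FPKM, and from another at that start listed at 0 in EtOH and at 7.31 in R5020. CCDC85C had 4.84 and 11.0 FPKM (log2 change 1.04) and a site of score 957.62 that is a promoter site by a GENCODE start inside the gene, not by the start of its transcript in the expression files. MRFAP1 lay 6.59 kb from the site of rank 4, with a score of 1018.85, and had 99.2 and 163 FPKM (log2 change 0.71).

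Of the 10 sites with the highest scores, 5 had no higher gene overlapping or nearest to them. The second site, at chr16:33885486-33887192 with a score of 1593.42, lay 1.40 Mb from a large gap and 73.9 kb from LINC00273, listed at 0 in EtOH and at 0.0759 in R5020. The ninth, at chr11:55012773-55014359, lay 0.319 Mb from a gap at TRIM48, listed at 0 in both. CCDC57, with an intronic site of 958.63, had 3.48 and 2.94 FPKM. NENF, which encodes the secreted protein neudesin, lay 39.6 kb from a site of 939.2 and had 5.73 and 5.24 FPKM. TPCN2, a cation channel gene of lysosomes, had 1.35 and 1.13 FPKM beside a site of 924.2. The last of the 10 was the intronic site of FKBP5, with 4 cores.

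Among the 12 largest rises near strong sites, measured over genes at 1 FPKM or more in both conditions, NET1 came first. It encodes a guanine nucleotide exchange factor and had 6.53 FPKM in EtOH and 57.7 in R5020 (log2 change 2.96), with a strong site of score 213.51 at 45.0 kb. Of its transcripts, the shorter variant had 2.55 and 57.7 FPKM, and the longer one had 3.99 and was listed at 0 in R5020. No failed status was given for it, although a listed 0 can still be a failed estimate. The paper lists this longer variant at similar FPKM in both conditions and reports it as relatively stable by RT-qPCR. Its 0 is therefore not read here as a loss. TIPARP, a mono-ADP-ribosyltransferase gene that the dioxin receptor also induces, had 4.37 and 29.9 FPKM (log2 change 2.52) and a promoter site of 199.15. FAM107B had 11.5 and 63.3 FPKM (log2 change 2.37), with a site of 155.53 near the lower limit of the scores, again a promoter site by a GENCODE start inside the gene only.

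The other large rises came with sites inside the gene or some distance away. DIXDC1, which acts in Wnt signalling, had 3.53 and 17.5 FPKM (log2 change 2.03) and an intronic site of 321.94. PACSIN1, a membrane-bending protein of endocytosis, had 3.28 and 14 FPKM (1.81) at 3.08 kb. PRKAB2, a regulatory subunit of the energy sensor AMPK, had 4.36 and 17.4 FPKM (1.78) at 44.7 kb. These genes span levels of a few FPKM in EtOH to more than 10 in R5020. RPS6KA5, the kinase MSK1 that phosphorylates histone H3, had 2.72 and 10.7 FPKM (1.66) at 15.9 kb. GINS2, a part of the replication helicase, had 11.3 and 34.0 FPKM (1.5) with 2 strong sites, the nearest at 27.3 kb. LCOR, a ligand-dependent corepressor of nuclear receptors, had 4.90 and 15.5 FPKM (1.48) at 22.4 kb. SNORA19, a small nucleolar RNA of 126 nt, had 5.33 and 19.6 FPKM, but an RNA that short is poorly measured in FPKM. EGFR, chosen after its values were seen, had 2.25 and 6.69 FPKM (log2 change 1.24) with the promoter site of 530.35 printed above.

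**Figure D5:**
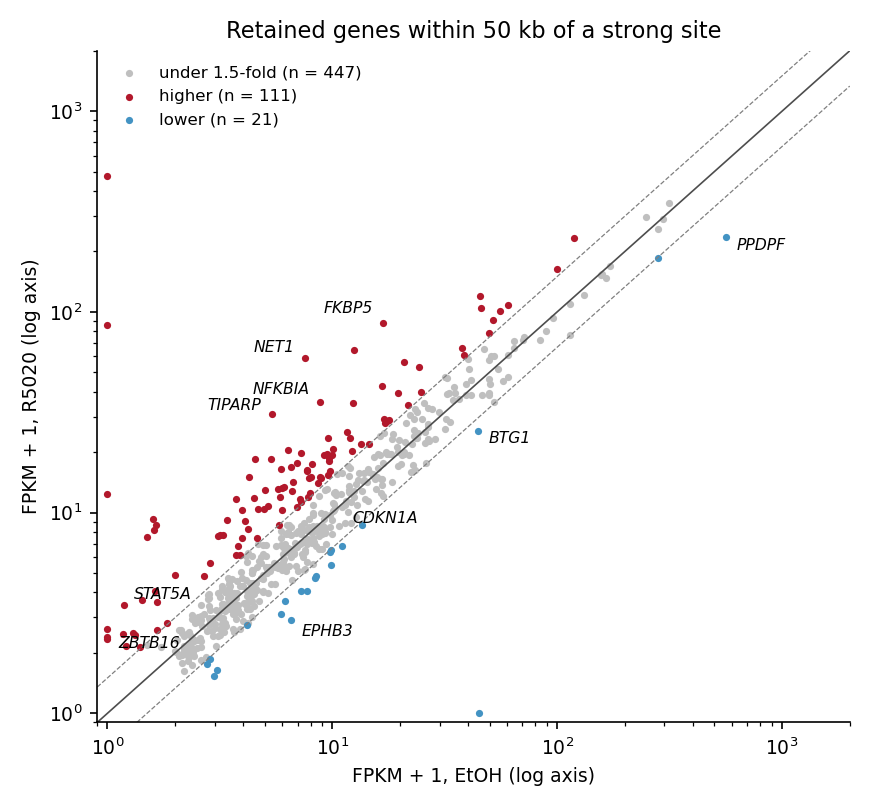
FPKM + 1 in R5020 (vertical axis, logarithmic) against FPKM + 1 in EtOH (horizontal axis, logarithmic) for the 579 retained genes within 50 kb of a strong site, 1 point for each gene and 1 library for each condition, so there are no error bars. The 111 higher genes (red) lie above the upper dashed line of 1.5-fold, the 21 lower ones (blue) below the lower line, and points on the left or bottom edge are listed at 0 in 1 condition.

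Genes that were lower near strong sites were few. PPDPF, a developmental factor gene, had 562 FPKM in EtOH and 234 in R5020 (log2 change −1.26), with a strong site at 16.5 kb. EPHB3, an ephrin receptor, had 5.56 and 1.92 FPKM (−1.17) and an overlapping site. BTG1, an antiproliferative gene, had 43.5 and 24.5 FPKM (−0.80), with a strong promoter site of 519.58 that ends 0.217 kb from the gene. Of the 90 retained genes whose best site within 50 kb scored 500 or more it was the only lower one, while 27 were higher. The lower share was thus 1.11% (0.196 to 6.03), against 4.14% of all retained genes, and the higher share 30%, against 7.67%. MFI2-AS1 had 6.70 and 3.05 FPKM (−0.93). Whether reads were counted by strand was not stated, so its values may include reads from the gene on the other strand. SIVA1, a pro-apoptotic gene, had 4.92 and 2.13 FPKM (−0.92), and PRSS8, the membrane serine protease prostasin, had 8.84 and 4.50 (−0.84). CDR2L and the non-coding LOC338799 both had a log2 change of −0.82.

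Genes with several strong sites did not stand clearly apart. Of retained genes with 1 strong site within 50 kb, 18.5% of 518 were higher (15.4 to 22.1), and with 2 or more, 24.6% of 61 (15.5 to 36.7). Among the genes with most sites, KIAA0182 had 7 within 50 kb, and C8orf51 had 5 on chromosome 8. C8orf51 had 2.47 and 3.16 FPKM, and ANO1, a calcium-activated chloride channel gene with 3 sites, 2.04 and 2.27. FLJ22447, also with 3, was low, with 0.109 and 0.241 FPKM. Beside FKBP5, ARMC12 had 0.215 and 1.15 FPKM (log2 change 0.83), and CLPSL2 had 0.657 in EtOH and was listed at 0 in R5020.

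Among the 579 retained genes, 7 were listed at 0 in 1 condition, and no fold is given for them. In R5020, GPR124 and MRPS12 were listed at 1.39 and 1.33 FPKM and ZBTB16 at 1.63, and the other 4 were small RNAs under 200 nt. Without such genes 105 were higher, or 18.4%.

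Groups of genes tied to steroid hormones were then looked up. The lists were chosen with earlier results of these data known, so their counts are descriptions and not independent evidence. Of 21 targets shared with the glucocorticoid receptor, all retained, 13 were higher and 1 lower, with a median log2 change of 1.40. Among all retained genes, 7.67% were higher and 4.14% lower. A strong site lay within 50 kb of 7 of the 21, or 33.3%, where 5.26% of all retained genes had one. FKBP5 and NFKBIA are described above, and STAT5A below. ZFP36, which encodes tristetraprolin, a protein that speeds the decay of cytokine mRNAs, had 8.63 and 17.7 FPKM (0.96) with a site of 535.81 at 53 bp. ZBTB16, the zinc finger repressor PLZF, was listed at 0 in EtOH and at 1.63 FPKM in R5020, with 2 intronic sites. KLF9, a Krüppel-like factor, had 1.38 and 2.09 FPKM (0.38) at 4.42 kb. CDKN1A, the cell cycle inhibitor p21, had 10.0 and 9.70 FPKM (−0.04) in spite of a promoter site of 341.43 with the core printed above. A strong site with a core was thus found at genes that were higher and at genes with nearly the same level.

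Of 15 genes of progesterone signalling in the mammary gland, 8 were retained, 4 higher and 1 lower, with a median of 0.59. The background was 7.67% of retained genes higher and 4.14% lower. A strong site lay near 2 of the 15, or 13.3%, against 3.80% of all genes. These 2 are neighbours and share 1 site of score 172.34, so the share rests on that site. Both encode signal transducers of prolactin, STAT5A with 0.183 and 2.45 FPKM (1.55) and STAT5B with 3.93 and 5.87 (0.48) at 17.9 kb. Of 13 luminal transcription factors, all retained, 1 was higher and 7 were lower, with a median of −0.60. The background was again 7.67% higher and 4.14% lower. TFAP2C, the factor AP-2 gamma, was the only 1 of them with a strong site, and had 15.9 and 11.1 FPKM (−0.48). None of the 7 lower factors had a strong site within 50 kb, PGR, the gene of the receptor itself, among them, with 23.7 and 15.3 FPKM (−0.60). At the background of 5.26% of retained genes, a count of 0 among so few is not a result about them. GRHL2, the higher one, had 14.8 and 72.3 FPKM (2.21), and its nearest strong site lay 53.6 kb away, just beyond the limit of 50 kb. PGR and GRHL2 were chosen after their values were seen.

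The study listed 59 genes of small GTPase signalling on these same samples, so their direction is not independent evidence. Of these, 54 were retained, 37 higher and 10 lower, with a median of 0.78. Among all retained genes, 7.67% were higher and 4.14% lower. Of the 59, 6 genes, or 10.2%, had a strong site within 50 kb, against 3.80% of all genes. Beside NET1 they included AKAP13, which encodes an anchoring protein of protein kinase A, with 3.07 and 8.06 FPKM (1.15) at 49.0 kb. RASAL1, a Ras-inactivating protein gene, had 0.152 and 0.604 FPKM and was not retained. The strong sites at NET1 and AKAP13 both lay more than 40 kb from the gene. The paper reports a further PR site in an intron of NET1, at the promoter of its shorter variant, where no strong site lay.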

How the data were processed

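Data of T47D cells were analysed from 1 PR ChIP-seq library and 2 RNA-seq libraries. The input DNA library entered only as the control of the site calls. Bowtie 1.1.2, TopHat and Cufflinks are named in the submitters' processing notes. Binding sites were called with MACS on hg19 by the authors, who deposited each with a score, −10 × log10 of its p-value. The list of sites carries positions and scores but no read totals, so the depth of the ChIP-seq library was not used here. The FPKM of each RefSeq transcript was estimated by the authors with Cufflinks and deposited with an interval and a status, of which the interval was not used. The coverage deposited by the authors was used only to express depth, by multiplying it with transcript length and dividing by 50 nt, the length of a read. The FPKM values carry no read counts, so no count test was run.

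Transcripts were joined by identifier and summed per gene symbol. Genes at an FPKM of 1 or more in 1 condition or both were retained, 1 was added before the log2 ratio, and 1.5-fold was the limit. A gene was near a site when its extent lay within 50 kb of the edge of the site. Sites were placed by their midpoint against GENCODE (release 44, mapped to GRCh37, which is hg19), using protein-coding genes and with promoters (1 kb) before exons and introns. Motifs were searched on both strands of 300 bp, and 1 strong site on a contig outside the reference was left out there. Python 3.11.15, pandas 2.3.3, numpy 2.4.6, scipy 1.17.1 and pysam 0.24.0 were used, and the scripts were tested on simulated data.

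The members and gene lists were chosen with earlier results of these data known. Named genes were those at the 10 highest scores, the 12 largest rises and 8 largest falls near strong sites among genes with at least 1 FPKM in each condition, the 8 genes with most strong sites, and list members with a strong site. Some genes that this rule names are not reported here.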

Additional observations from a re-analysis of the deposited data

How the results depend on the processing

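No paired analysis was possible because each condition had 1 library, which also left no replicate to leave out. Limits of the score of 100 and 300 gave 1824 and 122 sites, median widths of 537 and 773 bp, 58.1% and 42.6% of midpoints inside a gene (51.7% at 150) and 33.5% and 6.56% of sites within 50 kb of another (20.8% at 150). A limit of 100 left 13.8% of sites with a core, 12.3% of nearby genes higher (244) and 87 lower, and a limit of 300 gave 26.7% higher (51) and 6 lower. Sites with another within 10 or 100 kb were 9.84% and 25.1%, and the core was in 8.52% of central 100-bp windows and 32.1% of whole sites. Higher genes were 27.3% within 10 kb (8 lower), 15.5% within 100 kb (45 lower) and 31.0% where a site overlapped the gene (57 higher, 5 lower). Without an FPKM filter 14.6% were higher, (5.14% of all genes). At 2-fold 10.5% were higher (61) (3.43% of all genes), and 0.518% (3) lower (1.31% of all genes), and 10 of 29 named genes no longer passed. Adding 0.1 in place of 1 gave 6.74% lower (39) (7.14% of all genes). In every setting tried the share of higher genes near strong sites exceeded that of all genes under the same setting. The other alternatives moved no share beyond its interval and no count beyond 1.5 times. Those chosen after seeing the data left out sites within 2 Mb of a gap, sites under 350 bp, genes with no transcript of 200 nt, and genes listed at 0 in 1 condition or with a status other than OK. Of the genes near strong sites, 7 were of the last kind, 6 of them higher.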
